A study of Danio rerio with 23 samples.

Results

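In the zebrafish ovary, 31 transcripts were higher in every library from fish without the glucocorticoid receptor than in any library from wild-type fish. They were chosen out of 57775 listed transcripts by their CPM (counts per 1000000, the estimated count of a transcript scaled to a library sum of 1000000). A transcript was kept when its lowest CPM over the 12 mutant libraries was at least 1 and also at least 1.5 times its highest CPM over the 11 wild-type libraries. The genotype difference of the 31 transcripts is therefore the basis of the choice, and no test is used to support it. Fits given further below include the 31, and nothing about this difference is drawn from them. Of the 15543 transcripts with at least 1 CPM in every mutant library, these 31 make up 0.199%. The mirror of the same limits, with the genotypes exchanged, held 40 transcripts.

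The glucocorticoid receptor is a nuclear receptor through which cortisol, the main stress steroid of fish, acts on transcription. After it has bound cortisol it moves into the nucleus, where it raises the transcription of some genes and lowers that of others. In egg-laying fish, cortisol also reaches the ovary from the circulation and is taken up by growing oocytes, so that it is present in the egg.

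The mutant, called GRKO here, is homozygous for a loss of nr3c1, the gene of the receptor, in the whole body. All fish were female, and the tissue was the whole ovary. The 4 groups were GRKO at 6 months after fertilisation (6 libraries), GRKO at 3 months (6 libraries), wild type (WT) at 6 months (6 libraries) and WT at 3 months (5 libraries), and the study concerns the receptor's role in how fast the ovary ages. The mutation made in nr3c1, the strain and the number of fish behind a library are not stated in the labels. Separate fish per library cannot be assumed, and p-values then describe the spread between these libraries, which may be partly technical.

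The deposited files list Ensembl transcript identifiers and do not pair them with genes, and 0 of the 31 identifiers were found in the gene tables used here. The transcripts are therefore given by identifier, and gene functions, chromosomal positions, cell type markers and nr3c1 itself were not analysed here. In whole ovary, more cells of a type and more RNA per cell cannot be told apart. Library totals lay between 29489146 and 39785753 estimated counts, and the lowest estimated count of a member in a GRKO library was 32.9. One label bears on all of the results. GRKO library 4 at 3 months has a mutant title and the genotype field of the wild type, and it was kept as GRKO by its title. Over all transcripts tested, the first principal component of log2(CPM + 0.5) held 32.5% of the variance. On it GRKO library 12 at 6 months lay at -101, and the other 5 of its group at -34.3 to 10.1. GRKO library 10 at 3 months lay at -100.3, and the other 5 of its group at -59.2 to -46.7. In WT at 6 months, libraries 1 and 2 scored 16.6 and 16.2, and the other 4 scored 81.0 to 97.9. The scores of WT libraries 2 and 6 at 3 months were -87.6 and -79.2, and those of the other 3 of that group 93.4 to 121. Each library was left out in turn, and GRKO libraries 10 and 12 at 6 months and WT libraries 2 and 6 at 3 months were also left out as pairs, a choice taken over from earlier results of these data.

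The 31 transcripts were of low to moderate abundance in the mutant and mostly near absent from the wild type. Their mean level over the 12 GRKO libraries ran from 1.51 to 35.5 CPM with a median of 5.40, and their mean level over the 11 WT libraries ran from 0 to 7.20 CPM with a median of 0.285. For 19 of the 31, no WT library reached 1 CPM. The ratio of the mean CPM in GRKO to that in WT was 10 or more for 17 transcripts, from 5 to 10 for 9 and under 5 for 5. Of the 341 values that the 31 transcripts had in WT libraries, 88 were a rounded count of 0, and 13 transcripts were seen in all 11 WT libraries.

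**Figure D1:**
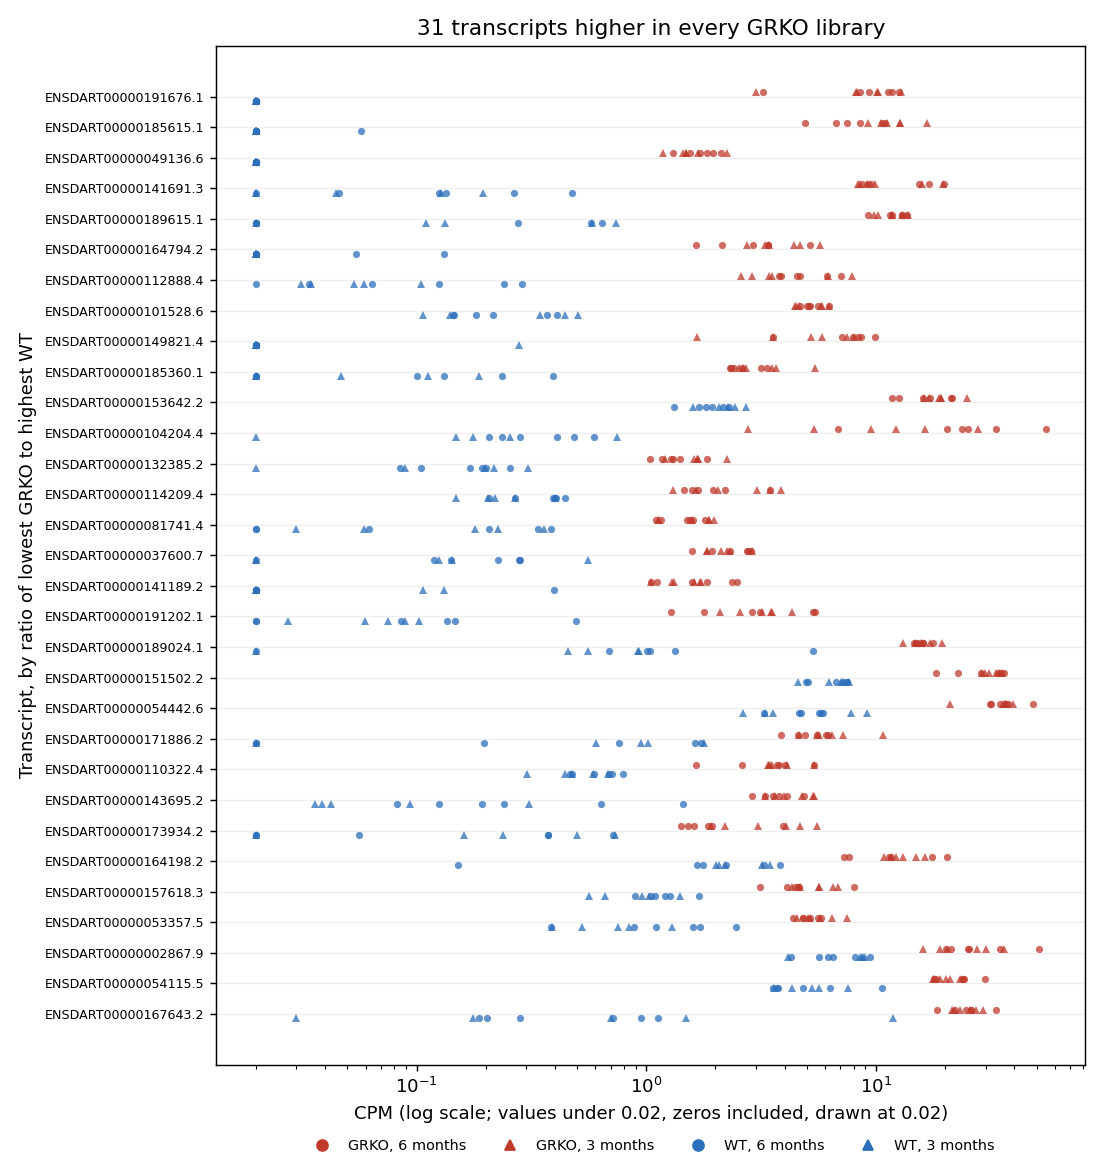
CPM of each of the 31 transcripts in all 23 libraries, on a log scale, with GRKO in red above WT in blue for each transcript and the 2 ages as circles (6 months) and triangles (3 months). The transcripts run from the widest gap between the lowest GRKO and the highest WT library at the top to the narrowest at the bottom, where ENSDART00000167643.2 has 1 WT library at 11.9 CPM.

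At the far end stood transcripts that were present in the mutant and not detected, or barely detected, in the wild type. In every GRKO library the estimated counts of ENSDART00000191676.1, ENSDART00000185615.1 and ENSDART00000049136.6 were fractional, as when reads are shared with other transcripts. Whether the split of shared reads bears on their levels in either genotype was not tested. ENSDART00000191676.1 had an estimated count of 0 in all 11 WT libraries. In GRKO it had 11.8, 11.3, 12.6, 8.52, 9.35 and 3.24 CPM in libraries 2, 3, 5, 10, 11 and 12 at 6 months, and 3.00, 8.24, 10.2, 8.17, 12.9 and 10.1 CPM in libraries 4, 7, 9, 10, 12 and 13 at 3 months. Library 12 at 6 months and library 4 at 3 months thus held the lowest levels, while the other 10 GRKO libraries lay between 8.17 and 12.9 CPM. Its mean in GRKO was 9.11 ± 3.22 CPM (SD, n = 12), at least 1162-fold above the level that 3 counts over the whole WT group would give, which covers counting error only.

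ENSDART00000185615.1 had 10.6, 4.92, 7.45, 10.9, 8.49 and 6.72 CPM in GRKO libraries 2, 3, 5, 10, 11 and 12 at 6 months and 12.7, 9.22, 11.2, 16.7, 12.7 and 10.5 CPM in GRKO libraries 4, 7, 9, 10, 12 and 13 at 3 months. WT library 7 at 6 months held it at 0.0572 CPM, which is 2.03 estimated counts, and the other 10 WT libraries had a count of 0. The lowest GRKO library was thus 86.0 times the highest WT library. Another transcript of this kind, ENSDART00000049136.6, was scarce in both genotypes. It ranged from 1.19 to 2.24 CPM in GRKO with a median of 1.61, and its estimated count summed over the 11 WT libraries was 0.477, so that every WT library rounded to 0. Its mean in GRKO was 1.67 ± 0.321 CPM (SD, n = 12), at least 213-fold above 3 counts over the WT group.

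The 2 most abundant members had a measurable level in the wild type and lay several-fold above it in the mutant. The highest mean belonged to ENSDART00000054442.6, with 35.5 ± 6.28 CPM in GRKO (SD, n = 12) and 5.12 ± 2.01 CPM in WT (SD, n = 11). Its GRKO libraries ran from 20.9 over a median of 36.5 to 48.3 CPM, and its WT libraries from 2.65 over a median of 4.71 to 9.15 CPM. The lowest GRKO value was that of library 4 at 3 months, and the next lowest was 31.4 CPM. The next most abundant was ENSDART00000151502.2, at 30.6 ± 5.44 CPM in GRKO (SD, n = 12) and 6.50 ± 1.13 CPM in WT (SD, n = 11). Its GRKO libraries lay between 18.3 and 36.2 CPM, and its WT libraries between 4.57 and 7.66 CPM. It was among the 5 transcripts that had at least 1 CPM in every WT library.

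ENSDART00000054442.6 was another of those 5, and the last 3 are named for completeness, a choice made after their values were seen. ENSDART00000153642.2 averaged 18.0 ± 3.68 CPM in GRKO (SD, n = 12) and 2.03 ± 0.404 CPM in WT (SD, n = 11). ENSDART00000002867.9 averaged 27.3 ± 9.76 CPM in GRKO and 7.20 ± 1.92 CPM in WT. ENSDART00000054115.5 averaged 21.4 ± 3.66 CPM in GRKO and 5.38 ± 2.17 CPM in WT. Across these 5 the mean in GRKO was 3.79 to 8.86 times the mean in WT, against a median ratio of 13.8 over the 31 transcripts. The 5 were grouped by their level in WT, which favours lower ratios, so nothing is read from this contrast. Other members of like abundance in GRKO were scarcer in WT. ENSDART00000167643.2 averaged 24.9 CPM in GRKO, with a median of 0.705 CPM in WT. ENSDART00000104204.4 averaged 19.9 CPM in GRKO and 0.321 CPM in WT.

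Just inside the limit on the ratio lay ENSDART00000167643.2, at a ratio of 1.54, and ENSDART00000054115.5, at 1.66. ENSDART00000167643.2 had 18.4 to 33.2 CPM in the GRKO libraries. WT library 10 at 3 months held 11.9 CPM of it, and the other 10 WT libraries held 0.0298 to 1.48 CPM. For ENSDART00000054115.5, WT library 6 at 6 months held 10.7 CPM, and the next highest WT library held 7.57 CPM. Just outside lay ENSDART00000054088.7, at a ratio of 1.48, and ENSDART00000085387.6, at 1.43. ENSDART00000054088.7 averaged 3.94 ± 0.832 CPM in GRKO (SD, n = 12) and 0.182 ± 0.604 CPM in WT (SD, n = 11), with 2.00 CPM in WT library 6 at 6 months. ENSDART00000085387.6 had 2.36 CPM in its lowest GRKO library, library 4 at 3 months, and at least 2.53 CPM in the other GRKO libraries, against at most 1.65 CPM in WT.

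On the side of abundance, ENSDART00000132385.2 and ENSDART00000141189.2 were just inside, with lowest GRKO levels of 1.04 and 1.05 CPM. ENSDART00000191747.1 and ENSDART00000104906.4 were just outside, with lowest GRKO levels of 0.978 and 0.959 CPM. The last of these averaged 5.74 ± 2.93 CPM in GRKO (SD, n = 12) and was at 0 throughout WT. A further 82 transcripts had every GRKO library above every WT library but by less than 1.5 times. Their lowest GRKO level had a median of 15.1 CPM, against 3.00 CPM for the 31 transcripts.

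**Figure D2:**
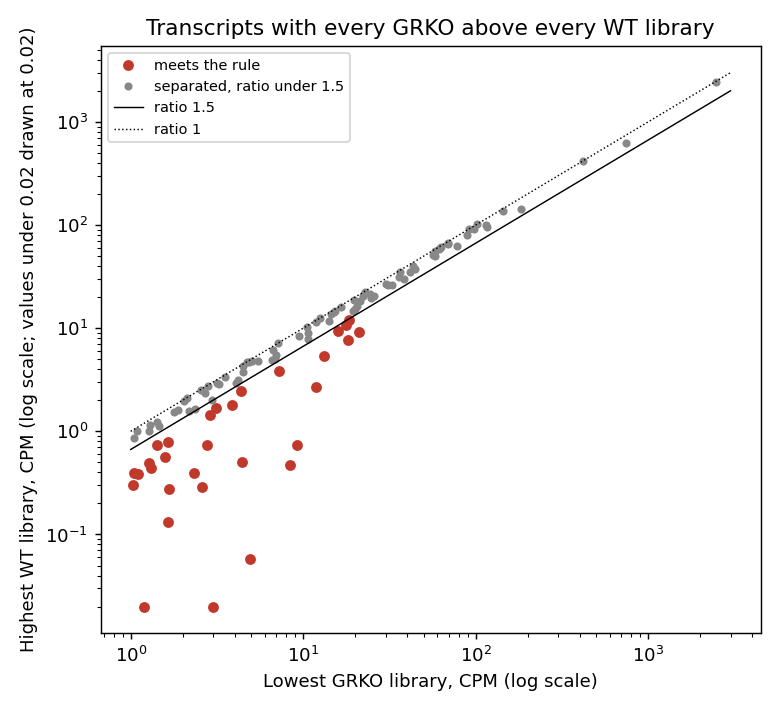
Lowest GRKO library against highest WT library in CPM, both on log scales, for the 113 transcripts with at least 1 CPM in every GRKO library and with every GRKO library above every WT library. The 31 transcripts in red lie below the line of ratio 1.5, with lowest GRKO levels up to 20.9 CPM, and the 82 in grey lie between that line and the line of equal values.

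Summed over the 31 transcripts, the level differed between the 2 ages by less than 1 SD within each genotype. The limits ran over both ages and so selected against members low in GRKO or high in WT at either age. A sum also hides opposite shifts, since 15 members had the higher GRKO mean at 6 months and 16 at 3 months. The sum was 321 ± 26.7 CPM in GRKO at 6 months (SD, n = 6), 308 ± 22.8 CPM in GRKO at 3 months (SD, n = 6), 36.8 ± 6.18 CPM in WT at 6 months (SD, n = 6) and 38.6 ± 6.63 CPM in WT at 3 months (SD, n = 5). The 12 GRKO libraries ran from 277 over a median of 312 to 351 CPM, and the 11 WT libraries from 30.2 over a median of 36.5 to 48.7 CPM. The libraries that lay away from their groups over all transcripts had sums on the side of their own genotype, which the choice of the members fixed for every library. GRKO library 12 at 6 months had 334 CPM, and GRKO library 10 at 3 months had 322 CPM. The sums were 33.6 and 38.9 CPM in WT libraries 1 and 2 at 6 months and 41.3 and 37.2 CPM in WT libraries 2 and 6 at 3 months. GRKO library 4 at 3 months had the lowest sum of the GRKO libraries, at 277 CPM.

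**Figure D3:**
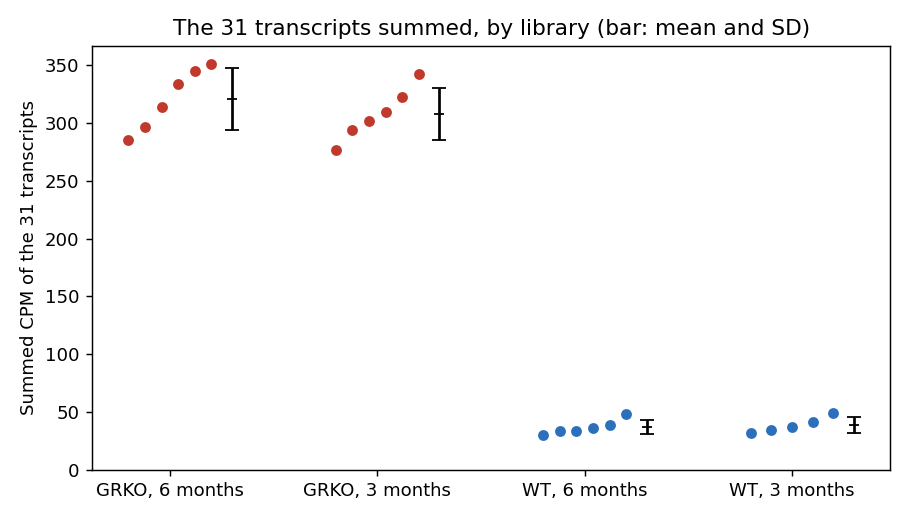
Summed CPM of the 31 transcripts in each library (points), with the mean and SD of each group (bars). GRKO libraries lie between 277 and 351 CPM and WT libraries between 30.2 and 48.7 CPM at both ages.

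Among the GRKO libraries, members differed widely in how evenly they were expressed. The coefficient of variation over the 12 libraries ran from 10.4% to 73.8% with a median of 27.7%, against a median of 20.1% over all transcripts with at least 1 CPM in every GRKO library. The steadiest was ENSDART00000189024.1, with 14.6 to 17.7 CPM in GRKO at 6 months, 13.2 to 19.5 CPM in GRKO at 3 months, 0 to 5.33 CPM in WT at 6 months and 0 to 0.927 CPM in WT at 3 months. WT library 6 at 6 months gave the highest WT value, and the next was 1.33 CPM. ENSDART00000101528.6 was next, with 4.44 to 6.27 CPM in GRKO and 0.107 to 0.504 CPM in WT.

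The least even was ENSDART00000104204.4. In GRKO it had 6.84, 55.0, 20.3, 23.7, 33.3 and 25.1 CPM in libraries 2, 3, 5, 10, 11 and 12 at 6 months and 2.78, 12.3, 5.40, 9.54, 16.3 and 27.9 CPM in libraries 4, 7, 9, 10, 12 and 13 at 3 months. The WT libraries held 0 to 0.744 CPM, so that even the lowest GRKO library was 3.74 times the highest WT library. ENSDART00000173934.2 followed, at 1.42 to 5.52 CPM in GRKO and 0 to 0.729 CPM in WT. At 6 months 5 of its 6 GRKO libraries lay at 1.42 to 1.93 CPM and library 11 at 3.94 CPM.

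The lowest GRKO value was spread over 10 of the 12 libraries. GRKO library 3 at 6 months was the lowest for 8 transcripts, GRKO library 13 at 3 months for 5 and GRKO library 4 at 3 months for 4. The highest GRKO value fell in library 10 at 3 months for 7 transcripts and in library 12 at 3 months for 7. The highest WT value fell in no library for more than 5 transcripts.

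Most members shared reads with other transcripts in the authors' estimation. Of the 31, 26 had a fractional estimated count in 1 library or more (values within 0.001 of a whole number were taken as whole), and 18 had a fractional count in all 12 GRKO libraries. The share with whole counts throughout was 16.1%, against 13.0% of the 30849 transcripts tested. The 5 with whole counts throughout, named because they are few, were ENSDART00000104204.4, ENSDART00000191202.1, ENSDART00000114209.4, ENSDART00000081741.4 and ENSDART00000157618.3. Their mean in GRKO was 61.9, 29.3, 7.57, 9.09 and 4.86 times their mean in WT, in that order. Whether reads moved between transcripts of 1 gene in the other 26 was not tested.

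Because the rule used all libraries, the same limits were applied without 1 library at a time, and the transcripts chosen in this way were then read in the library left out. Leaving out a library can only loosen the limits, so the 31 are in each of these choices by construction, and what each library shows is how many others it had kept out. It was 0 for 9 of the 23 libraries and 1 to 10 for the other 14, which gave choices of 31 to 41 transcripts. Of the 49 transcripts added over all these choices, with those added more than once counted each time, 30 still had the left-out library beyond the whole range of the other genotype, at under the ratio of 1.5 or the level of 1 CPM. WT library 7 at 6 months kept out the most, 10, and it lay below every GRKO library for 4 of them, and so for 35 of the 41 chosen without it.

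GRKO library 4 at 3 months, whose labels conflict, was read in the same way. The other 22 libraries chose 32 transcripts, and library 4 lay above every WT library for all 32 and met both limits for 31. Those 31 are the members, which were chosen with library 4 as GRKO, and nothing about its label is drawn from these counts. The exception was ENSDART00000085387.6, at 2.36 CPM in library 4 and at most 1.65 CPM in WT. When library 4 was counted as WT, 1 transcript of the 31 was left, as the rule leads to once the library has been above WT for all of them. This was ENSDART00000104204.4, at 2.78 CPM in library 4 and at least 5.40 CPM in the other GRKO libraries. WT libraries 2 and 6 at 3 months lay below every GRKO library for 32 of the 34 and all 34 transcripts chosen without them. Each list holds the 31 by construction. Of the 3 added to each list, 1 lay on that side in library 2 and 3 in library 6. Leaving both out gave 43 transcripts, and leaving out GRKO libraries 10 and 12 at 6 months gave 37, which again include the 31 by construction.

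**Figure D4:**
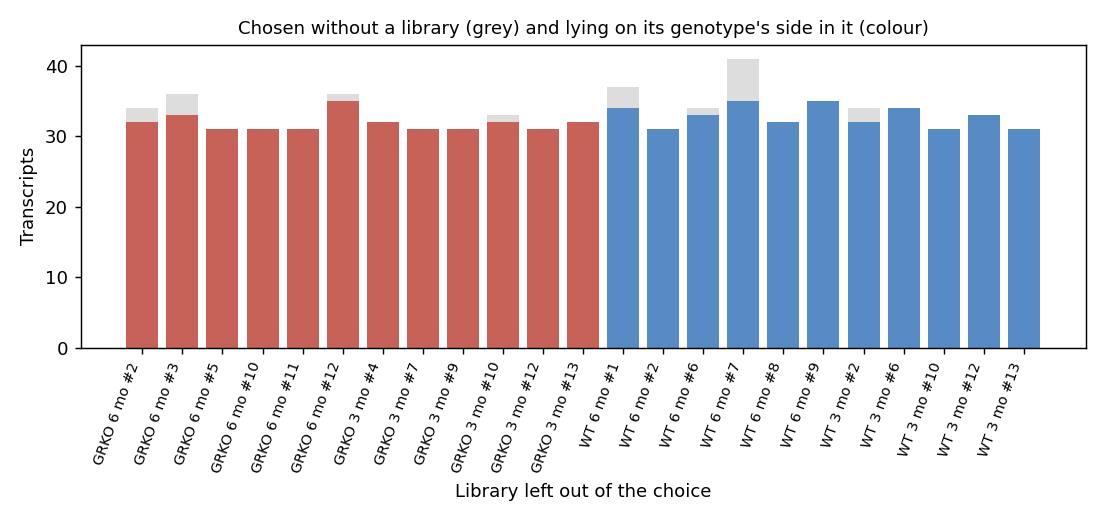
Number of transcripts chosen by the same limits without each library (grey, full height), which holds the 31 by construction, and number of these that lay on the side of that library's genotype in the library itself (red for GRKO, blue for WT). Counts run from 31 to 41, and the grey part is widest for WT library 7 at 6 months, with 35 of 41.

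The limits were also applied to the libraries of 1 age, and the chosen transcripts were read at the other, a reading chosen after the data were seen. The libraries of 6 months alone chose 64 transcripts and those of 3 months alone 157, and both lists hold the 31 transcripts, which separate at both ages by their choice. Of the 157 chosen at 3 months, all had a higher mean CPM in GRKO than in WT at 6 months, and in 64 every GRKO library lay above every WT library at that age. The second count is 40.8% of the list, against 2.63% of all transcripts with a mean of at least 1 CPM in GRKO at 6 months. The 31 transcripts are among those separated by construction, and they raise this share. They have the higher mean by construction as well, and no share over all transcripts is given here for that count. The list also had to meet both limits at 3 months, which the wider background did not. The 2 shares are thus not a like comparison, and the calls that follow count the 31 as well. In a fit of the 6 months libraries alone, 64 of the 157 were called higher in GRKO and 0 lower (quasi-likelihood test of edgeR, adjusted p under 0.05), against 2.24% of all transcripts called higher. The median log2 fold change of the 157, GRKO over WT, was 1.95 at 6 months, against -0.04 over all transcripts tested. The list holds the 31, which the rule separated at this age. Nothing about the list or the ages is drawn from these counts and this median.

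The reading was also made in the opposite direction, with the same caveats. Of the 64 transcripts chosen at 6 months, 63 had a higher mean CPM in GRKO than in WT at 3 months, and in 49 every GRKO library lay above every WT library, against 3.87% of all transcripts with a mean of at least 1 CPM in GRKO at that age. Here too the 31 transcripts are among the 63 and the 49 by construction, and the background is the wider one. For the higher mean, no share over all transcripts is given here. The fit of the 3 months libraries called 41 of the 64 higher in GRKO and 0 lower, against 2.44% of all transcripts called higher, and their median log2 fold change was 2.75 against -0.04. The 64 hold the 31, which the rule separated at this age, so these values are not a like comparison either. Nothing about the list or the ages is drawn from them. No count of calls without the 31 is given here. In the first direction the count of 64 became 39 without GRKO libraries 10 and 12 at 6 months. It became 176 of 973 chosen transcripts when WT libraries 2 and 6 at 3 months were left out of the choice. In the second direction the count of 41 became 58 without WT libraries 2 and 6 at 3 months, and 53 of 91 chosen transcripts when GRKO libraries 10 and 12 at 6 months were left out of the choice.

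The rule named no age, but its limits run over both ages, so a transcript that was low in GRKO or high in WT at 1 age was selected against. Differences with age are therefore described here, with the shares over all transcripts beside them and nothing read from the comparison. In GRKO, 0 of the 31 passed (quasi-likelihood test of edgeR on all 23 libraries, p adjusted over 30849 transcripts by the Benjamini-Hochberg method, threshold 0.05, where 0.0162% of all transcripts passed), and 0 had an unadjusted p under 0.05, where 10.3% of all transcripts did. DESeq2 gave no p for ENSDART00000167643.2 and ENSDART00000189024.1, here and in the tests of age in WT and of the interaction. It called 0 of the other 29 for age in GRKO, where it called 2.37% of all transcripts. Of the 29, 1 had an unadjusted DESeq2 p under 0.05, and no share over all transcripts is given here for that count. The log2 fold change of 6 over 3 months in GRKO ran from -0.83 to 1.101 over the 31, with a median of -0.04 against 0.03 over all transcripts, and 30 of the 31 lay within 1 of 0. Standard errors ran from 0.16 to 0.87 with a median of 0.48, and a missed threshold does not show that levels were equal.

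**Figure D5:**
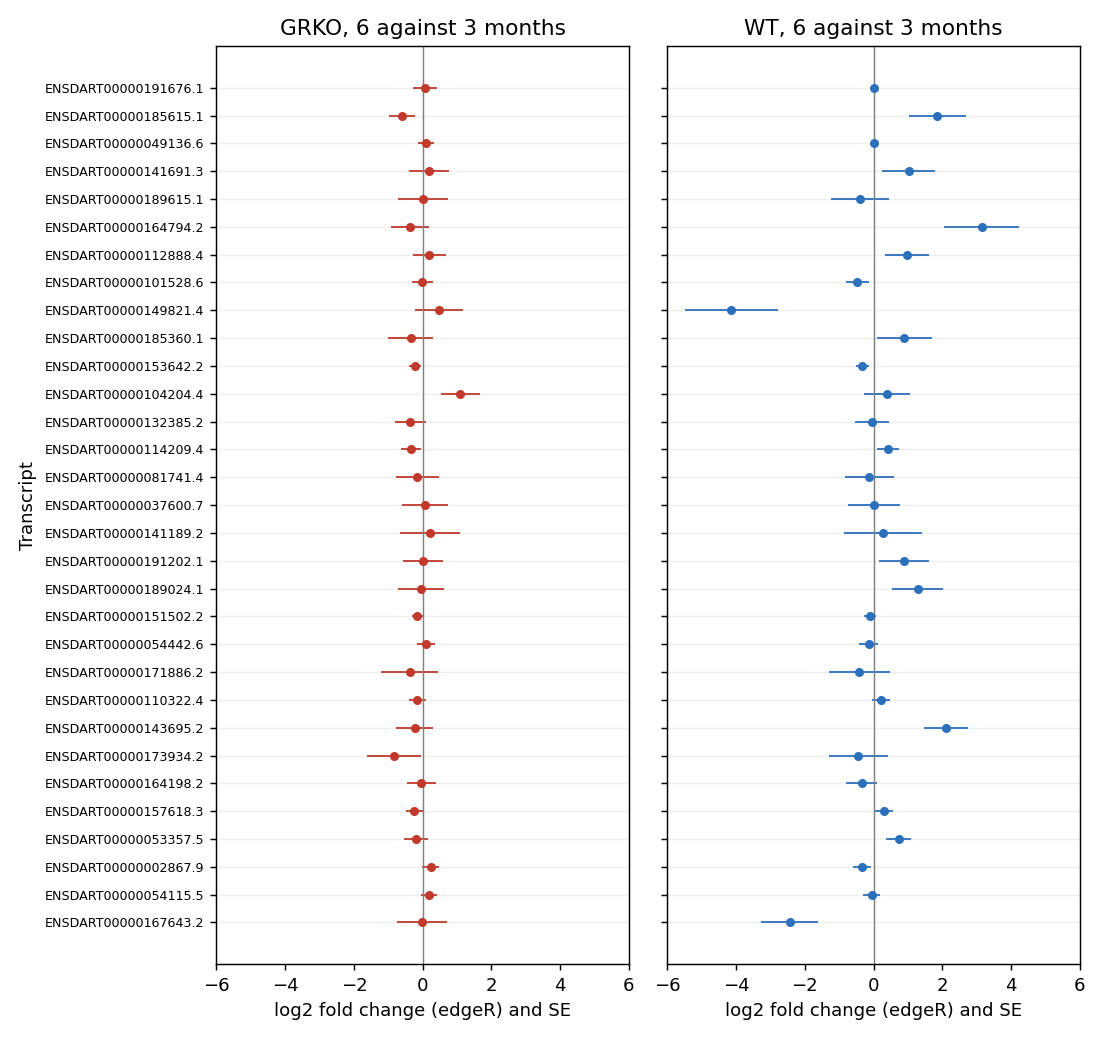
Log2 fold change of 6 over 3 months in GRKO (left) and in WT (right) for each of the 31 transcripts, with 1 standard error on each side; the 2 transcripts at a rounded count of 0 in every WT library are drawn at 0 with no error. GRKO values lie between -0.83 and 1.101, and WT values are more scattered, between -4.14 and 3.15. Both WT extremes, ENSDART00000149821.4 and ENSDART00000164794.2, had a count of 0 in every WT library of 1 age. Their size therefore depends on the prior count added in the fit.

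In GRKO, the smallest p among members that were higher at 6 months was that of ENSDART00000104204.4. It averaged 27.4 ± 16.0 CPM in GRKO at 6 months and 12.4 ± 9.00 CPM in GRKO at 3 months (SD, n = 6 each), which is 1.101 on the log2 scale (SE 0.58, edgeR adjusted p = 0.545). The groups overlapped, since GRKO library 2 at 6 months had 6.84 CPM and GRKO library 13 at 3 months had 27.9 CPM. ENSDART00000002867.9 came next, with 29.7 ± 11.7 CPM at 6 months and 24.8 ± 7.66 CPM at 3 months in GRKO (SD, n = 6 each; log2 fold change 0.23, SE 0.25, edgeR adjusted p = 0.834). Among members that were lower at 6 months, ENSDART00000185615.1 averaged 8.19 ± 2.32 CPM at 6 months and 12.2 ± 2.59 CPM at 3 months in GRKO (log2 fold change -0.59, SE 0.38, edgeR adjusted p = 0.659). ENSDART00000153642.2 averaged 16.7 ± 4.09 CPM at 6 months and 19.2 ± 3.05 CPM at 3 months in GRKO (log2 fold change -0.23, SE 0.17, edgeR adjusted p = 0.722). All 4 had overlapping ages.

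In WT, 0 of the 31 passed the edgeR test of age, where 0.00972% of all transcripts passed, and 4 had an unadjusted p under 0.05, where 11.3% of all transcripts did. DESeq2 gave a p for 29 and called 1 of these, ENSDART00000143695.2, and 1.68% of all transcripts. The members passed the filter through their GRKO libraries, 88 of the 341 WT values were at a rounded count of 0, and 2 members had no standard error. This limited what could be called in WT, although 13 members were seen in every WT library. Nothing is drawn from these counts. The levels of the 4 with an unadjusted p under 0.05 in edgeR were low or rested on 1 or 2 libraries. ENSDART00000143695.2 had 0.193, 0.635, 1.44, 0.0820, 0.240 and 0.125 CPM in WT libraries 1, 2, 6, 7, 8 and 9 at 6 months and 0.308, 0.0941, 0.0361, 0.0386 and 0.0424 CPM in WT libraries 2, 6, 10, 12 and 13 at 3 months. The ages overlapped, and library 6 at 6 months stood highest (log2 fold change 2.11, SE 0.65, edgeR adjusted p = 0.249, DESeq2 adjusted p = 0.0490). The log2 fold change was 1.31 without WT library 6 at 6 months, 3.18 without WT library 2 at 3 months, and 3.70 without WT libraries 2 and 6 at 3 months (edgeR adjusted p = 0.0553). ENSDART00000164794.2 was seen in WT libraries 7 and 9 at 6 months, at 0.0547 and 0.132 CPM, and had a count of 0 in every other WT library.

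In the opposite direction, ENSDART00000149821.4 was seen in 1 WT library, library 10 at 3 months, at 0.279 CPM. The same library held the 11.9 CPM of ENSDART00000167643.2, which had 0.203, 0.186, 0.715, 0.281, 1.13 and 0.944 CPM in WT libraries 1, 2, 6, 7, 8 and 9 at 6 months and 0.176, 0.0298, 11.9, 1.48 and 0.705 CPM in WT libraries 2, 6, 10, 12 and 13 at 3 months. Apart from library 10 the ages overlapped (log2 fold change -2.45, SE 0.83, edgeR adjusted p = 0.277). Its log2 fold change was -0.15 without library 10, and its adjusted p was 0.0430 without WT libraries 2 and 6 at 3 months.

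Whether the genotype difference itself differed between the ages was read from the same fit, on members whose choice asked for separation at both ages, so the outcome is conditioned by the rule and nothing is drawn from it. For the interaction of genotype and age 0 of the 31 passed in edgeR, where 0.00648% of all transcripts passed, and 4 had an unadjusted p under 0.05, where 4.83% of all transcripts did. DESeq2 called 0 of the 29 with a p and 1% of all transcripts. The 4 in edgeR were the same as those with an unadjusted p under 0.05 for age in WT. Over the members with a level above 0 in WT at the age, 28 at each, the median ratio of the GRKO mean to the WT mean was 8.85 at 6 months and 10.7 at 3 months.

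Outside the 31, the transcripts whose levels over the 23 libraries went most closely with the members' mean were ENSDART00000191747.1 and ENSDART00000002469.7. Likeness was measured as Pearson's correlation of log2(CPM + 0.5) with the mean of the 31, among the transcripts tested. It was 0.983 and 0.960 for these 2 over the 23 libraries, and it serves only to rank transcripts, since the libraries fall into 2 genotypes. ENSDART00000191747.1, already met just under the limit of 1 CPM, ran from 0.978 over a median of 1.68 to 2.27 CPM in GRKO and was at 0 in WT but for 0.0653 CPM in library 9 at 6 months. ENSDART00000002469.7 was far more abundant. Its CPM ran from 89.2 over a median of 144 to 151 CPM in GRKO and from 34.7 over a median of 38.7 to 80.4 CPM in WT, so that its lowest GRKO library was 1.11 times its highest WT library.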

How the data were processed

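RNA captured by its poly(A) tail was sequenced in 23 ovary libraries, per the labels' protocols. The authors deposited 1 estimated count per transcript and library, and the submitters' processing notes name kallisto 0.48.0 and the build GRCz11. The transcript annotation, any read filter and the use of strand are not given in these sources. Estimated counts split reads among similar transcripts, and 74.2% of the nonzero values were fractional. Titles gave each library's group and number. All 55 pairs of libraries of 1 group differed by more than counting noise (smallest chi-square over its degrees of freedom 28.4).

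CPM values use plain sums of the deposited estimated counts. For tests they were rounded to whole numbers. A model with the 4 group means was fitted to the 23 libraries in edgeR 4.0.16 under R 4.3.3 (quasi-likelihood test, robust, TMM factors, minimum count of 10 and total of 15). This kept 30849 transcripts, all 31 members among them, and p-values were adjusted over all of these by the Benjamini-Hochberg method with a threshold of 0.05. Standard errors were obtained from each fold change and its F statistic. The 31 members passed the filter through their GRKO libraries by construction. DESeq2 1.42.0, limma 3.58.1, other scaling factors and filters, the library number as a block and left-out libraries were alternatives, as were other limits of the rule.

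The members, the named transcripts and the alternatives were chosen with earlier results of these data known. Named by rule were the top 2 by ratio, by mean level in GRKO, by p for age in each direction and genotype, and by highest and lowest coefficient of variation, those beside each limit, and the 2 most alike outside the members. Any other name was chosen after its values were seen. Lists of cell type markers and pathway genes could not be applied to identifiers without gene names and were not analysed here. Intervals and limits from counts cover counting error only. Figures were drawn with matplotlib 3.10.9.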

Additional observations from a re-analysis of the deposited data

Results flagged for a closer look

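In groups of 4 to 10 libraries, a library was looked at again when its gap to the next one took an unusually large part of the group's range. Over 62 groups of named transcripts and of the members' sum, 11 values stood out. The nominal chance rate of about 5% of groups does not apply to this count. A single value among zeros always has the largest possible gap, and some transcripts were named for their unevenness or for a high WT library. No excess over chance is read from the count. In GRKO at 6 months these were library 12 at 48.3 CPM of ENSDART00000054442.6, next to 37.4 CPM, and library 11 at 3.94 CPM of ENSDART00000173934.2, next to 1.93 CPM. In GRKO at 3 months they were library 4 at 20.9 CPM of ENSDART00000054442.6, below 35.7 CPM, and library 10 at 24.9 CPM of ENSDART00000153642.2, next to 19.3 CPM.

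Among WT libraries at 6 months, library 6 held 5.33 CPM of ENSDART00000189024.1, next to 1.33 CPM, and library 7 held 0.0572 CPM of ENSDART00000185615.1, where the others were at 0. At 3 months, WT library 10 held 11.9 CPM of ENSDART00000167643.2, next to 1.48 CPM, and 0.279 CPM of ENSDART00000149821.4, where the others were at 0. WT library 6 held 4.16 CPM of ENSDART00000002867.9, below 8.49 CPM. WT library 2 held 0.308 CPM of ENSDART00000143695.2, next to 0.0941 CPM, and WT library 13 held 0.0141 CPM of ENSDART00000049136.6, where the others were at 0.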

How the results depend on the processing

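The number of 31 transcripts became 50 at the lower ratio limit tried, 20 at a lowest GRKO level of at least 2 CPM, 157 and 64 with the libraries of 3 and of 6 months only, 5 with whole estimated counts only and 1 with GRKO library 4 counted as WT. TMM-scaled library sizes gave 33 transcripts, 29 of them among the 31. Members called for age in WT became 1 with DESeq2 and 1 without WT libraries 2 and 6 at 3 months, and were 0 in the other 33 alternatives. Members called for age in GRKO and for the interaction were 0 in every alternative run, 35 and 34 in number. Of the 157 transcripts chosen at 3 months, 64 were called higher in GRKO at 6 months. This became 98 of 157 with limma and 39 of 157 without GRKO libraries 10 and 12 at 6 months. Leaving WT libraries 2 and 6 at 3 months out of the choice widened the list itself, and 176 of 973 were called. Counting GRKO library 4 as WT turned the log2 fold change with age in WT to -0.75 for ENSDART00000143695.2 and to -4.95 for ENSDART00000164794.2, and leaving out 1 library at a time moved that of ENSDART00000149821.4 between -4.43 and 0, with 0 reached without WT library 10 at 3 months. Fitted values of these last 2 depend on the prior count, since a group is at 0.

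With the library number as a replicate block, 0 members were called for age in GRKO, in WT or for the interaction, and 35 in place of 41 transcripts chosen at 6 months were called at 3 months. Under the block, the log2 fold change with age in GRKO became -0.11 for ENSDART00000002867.9, 0.48 for ENSDART00000104204.4, -0.35 for ENSDART00000185615.1 and -0.36 for ENSDART00000153642.2, and that in WT became -0.58 for ENSDART00000167643.2. Between libraries with the same number, deviations from the group means had correlations of -0.29 to 0.36. Libraries with different numbers were not compared in this way, so whether the numbers pair the samples cannot be told from these values.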
